A study of Mus musculus with 10 samples.

Results

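PDE3B is a phosphodiesterase, an enzyme that breaks down the second messenger cyclic AMP (cAMP). The comparison described here sets 1 array of regulatory T cells carrying a PDE3B vector (MigR1_PDE3B) against 1 array of the same kind of cells carrying the empty vector (MigR1_empty), chosen by the vector named in the sample labels. These are 2 of the 10 arrays of the series, which holds 1 array per group, so every difference below is a description of 2 arrays without replicates, no test was possible, and precision is limited by there being 1 array on each side. A further array, of cells carrying PDE3B with the substitution H801A (MigR1_PDE3B_H801A), is given beside them. It shares the empty vector control, so its differences are not independent of those of the PDE3B array.

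All 3 arrays hold RNA of CD4+ T cells from female C57BL/6 mice aged 6 to 8 weeks. CD25+ CD4+ cells were isolated with magnetic beads, stimulated in culture through CD3 and CD28 (antibodies at 100 ng/ml each) with IL-2 at 100 U/ml, and spun with retroviral supernatant on days 1 and 2. MigR1 is a retroviral vector that marks the cells it enters with green fluorescent protein (GFP). On day 5 such cultures held over 70% Foxp3+ cells, over 55% of which carried the vector, so a minority of the cells that were transferred were not regulatory T cells by this stain. They were mixed with CD25- CD4+ cells of B6.SJL mice (Ly5.1+) that carried the same vector, and injected into recipients lacking T cell receptor alpha, which have no alpha beta T cells of their own. After 3 weeks the transferred cells that were GFP+, CD4+, GITR+ and free of Ly5.1 were sorted out of pooled lymph nodes and spleen. GITR, encoded by Tnfrsf18, is a receptor of the TNF receptor family that is abundant on regulatory T cells, and the labels do not give the number of mice behind an array. The other 7 arrays hold T cells sorted straight from mice, also aged 6 to 8 weeks, with a GFP reporter in the Foxp3 gene. Used below are GFPfoxp3 cells (GFP+ cells of gfp/gfp mice, making Foxp3) and CD25pos cells (GFP- CD25+ cells of gfp/gfp mice). Also used are GFPko cells, GFP+ cells of gfpko/wt females, which make GFP from the Foxp3 locus without the Foxp3 protein. Each kind came from mice with and without IL-2 injections.

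Cyclic AMP is made by adenylyl cyclases after ligands bind receptors coupled to the G protein Gs. It activates protein kinase A, which phosphorylates the transcription factor CREB, and it is removed by phosphodiesterases. In T cells cAMP restrains activation through the antigen receptor, and regulatory T cells are known for a high content of cAMP. Foxp3, the factor that defines regulatory T cells, is known to repress Pde3b. A vector that carries PDE3B addresses what keeping this enzyme does to these cells.

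The PDE3B array had more genes with lower than with higher levels. Of 11939 genes measured, 143 were at least 2-fold higher with PDE3B than with the empty vector (1.2% of all genes tested) and 507 were at least 2-fold lower (4.25%), together 5.44%. The largest increase was Hspa1b, an inducible heat shock protein 70 chaperone, and the AP-1 genes Fos and Jun and the receptor gene Il6ra were also among the largest. On the lower side were Jak3, a kinase of the IL-2 receptor pathway, and 9 of 23 mitosis genes. Of 64 genes around cAMP itself 52 (81.3%) differed by less than 0.5 log2 units, against 76.6% of all genes.

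The promoters of 5 of these genes are printed here because they belong to single genes described below: the chaperone with the largest increase, the AP-1 genes Fos and Jun, which were higher, and 2 kinases of mitosis that were lower. Each is the 300 bases around the gene's start, from 250 before it to 50 after it, from RefSeq on the build GRCm38.p6, written 5′ to 3′ on the gene's strand. Capitals mark matches to short letter patterns found on either strand: the core of the heat shock element, GAANNTTC, in Hspa1b and Jun, the first letters of the cAMP response element, TGACG, in Fos, and the CCAAT box, CCAAT, together with the cell cycle homology region, TTTGAA, in Plk1 and Aurka. The positions are chr17:34959189-34959488 on the minus strand for Hspa1b, chr12:85473640-85473939 on the plus strand for Fos, chr4:95052173-95052472 on the minus strand for Jun, chr7:122159185-122159484 on the plus strand for Plk1 and chr2:172370521-172370820 on the minus strand for Aurka.
Hspa1b: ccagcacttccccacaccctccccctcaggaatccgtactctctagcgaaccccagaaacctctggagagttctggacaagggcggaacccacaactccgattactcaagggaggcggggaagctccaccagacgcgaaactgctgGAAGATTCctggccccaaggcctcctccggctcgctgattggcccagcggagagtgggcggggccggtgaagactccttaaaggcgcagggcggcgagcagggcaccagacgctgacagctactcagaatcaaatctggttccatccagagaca
Fos: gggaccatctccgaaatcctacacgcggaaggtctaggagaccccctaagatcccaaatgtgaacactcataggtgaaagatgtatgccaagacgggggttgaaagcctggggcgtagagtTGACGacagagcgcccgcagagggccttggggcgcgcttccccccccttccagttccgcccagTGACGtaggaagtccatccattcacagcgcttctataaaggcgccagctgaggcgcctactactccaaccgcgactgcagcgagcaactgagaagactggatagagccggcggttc
Jun: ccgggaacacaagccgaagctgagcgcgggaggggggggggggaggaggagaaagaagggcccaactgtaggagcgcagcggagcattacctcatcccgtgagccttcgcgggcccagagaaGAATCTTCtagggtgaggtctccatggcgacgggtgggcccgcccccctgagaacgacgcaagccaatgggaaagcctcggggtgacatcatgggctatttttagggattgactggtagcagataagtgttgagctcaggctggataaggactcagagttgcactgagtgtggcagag
Plk1: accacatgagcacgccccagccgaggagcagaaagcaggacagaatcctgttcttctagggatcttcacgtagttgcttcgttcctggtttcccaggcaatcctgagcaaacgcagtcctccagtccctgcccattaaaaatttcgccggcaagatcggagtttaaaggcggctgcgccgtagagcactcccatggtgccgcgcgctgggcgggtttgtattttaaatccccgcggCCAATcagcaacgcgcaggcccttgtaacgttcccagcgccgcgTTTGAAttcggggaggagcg
Aurka: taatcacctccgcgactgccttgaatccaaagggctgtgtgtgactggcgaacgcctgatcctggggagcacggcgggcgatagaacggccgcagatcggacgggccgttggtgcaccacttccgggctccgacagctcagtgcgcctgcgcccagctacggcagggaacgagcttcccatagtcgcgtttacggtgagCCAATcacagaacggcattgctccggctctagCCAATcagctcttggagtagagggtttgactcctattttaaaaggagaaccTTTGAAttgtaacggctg

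These patterns are common, and a match is a description of letters, not of a bound site. Promoters were at hand for 9689 of the 11939 genes. The whole cAMP response element, TGACGTCA, lay in the promoters of 3.37% of those genes, of 1.83% of the genes at least 2-fold higher with PDE3B (2 of 109) and of 3.11% of those at least 2-fold lower (13 of 418). Its first letters TGACG, which the whole element contains, lay in 34.8% of all genes, in 38 of the 109 higher and in 138 of the 418 lower ones. The heat shock core lay in 6.89% of all genes, 7.34% of the higher and 5.74% of the lower ones. TTTGAA lay in 15 of 19 mitosis genes with a promoter, against 14.9% of all genes, and in 15.1% of the genes at least 2-fold lower. CCAAT lay in 16 of those 19 mitosis genes, against 42.9% of all genes, and in 42.3% of the lower ones.

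The labels were checked first. The 1 probe set of Pde3b read 6.91 (log2) in the PDE3B array, 7.54 in the H801A array and 7.43 in the empty vector array, a difference of -0.52 between PDE3B and the empty vector. Where on the transcript it lies is not known here, so it may miss the transduced sequence, in which case it is no check of the vector, and the arrays are called by what their labels say. Foxp3 lay at 11.26 with PDE3B, 11.29 with H801A and 11.52 with the empty vector, and Tnfrsf18, used for the sort, at 10.83, 10.91 and 11.12 in the same order. Ptprc, which encodes the leukocyte antigen CD45, lay at 14.32, 14.09 and 14.07. Foxp3, Tnfrsf18 and Ptprc were thus bright on all 3 arrays. Il2ra (CD25) lay at 9.87 with PDE3B, 10.04 with H801A and 10.54 with the empty vector. Cd4, also used for the sort, was at least 2-fold lower with PDE3B, at 8.05, against 8.65 with H801A and 9.29 with the empty vector.

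Control probe sets differed between the arrays. The array carries probe sets at the 3′ end, middle and 5′ end of Actb and Gapdh, and the gap between 3′ and 5′ ends widens as the labelled RNA becomes shorter. That gap for Actb was 6.38 log2 units with PDE3B, 5.95 with H801A and 5.87 with the empty vector, against 2.70 to 3.80 on the 7 sorted-cell arrays. For Gapdh it was 7.99, 7.47 and 7.62, against 5.24 to 6.49 on those arrays. PDE3B minus empty vector, the 3′ probe sets differed by -0.08 (Actb) and -0.12 (Gapdh), the middle ones by -0.58 and -0.85, and the 5′ ones by -0.59 and -0.50. The hybridization controls are RNAs of bioB, bioC, bioD and cre added to every sample, each read by several probe sets. All 18 of these probe sets were lower on the PDE3B array than on the empty vector array, by -0.38 to -0.05 with a median of -0.28. The H801A array was also below the empty vector array on all 18. One probe set of bioB, for example, read 9.21 with PDE3B, 8.97 with H801A and 9.45 with the empty vector. The part of these technical differences in the gene differences was not tested.

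**Figure D1:**
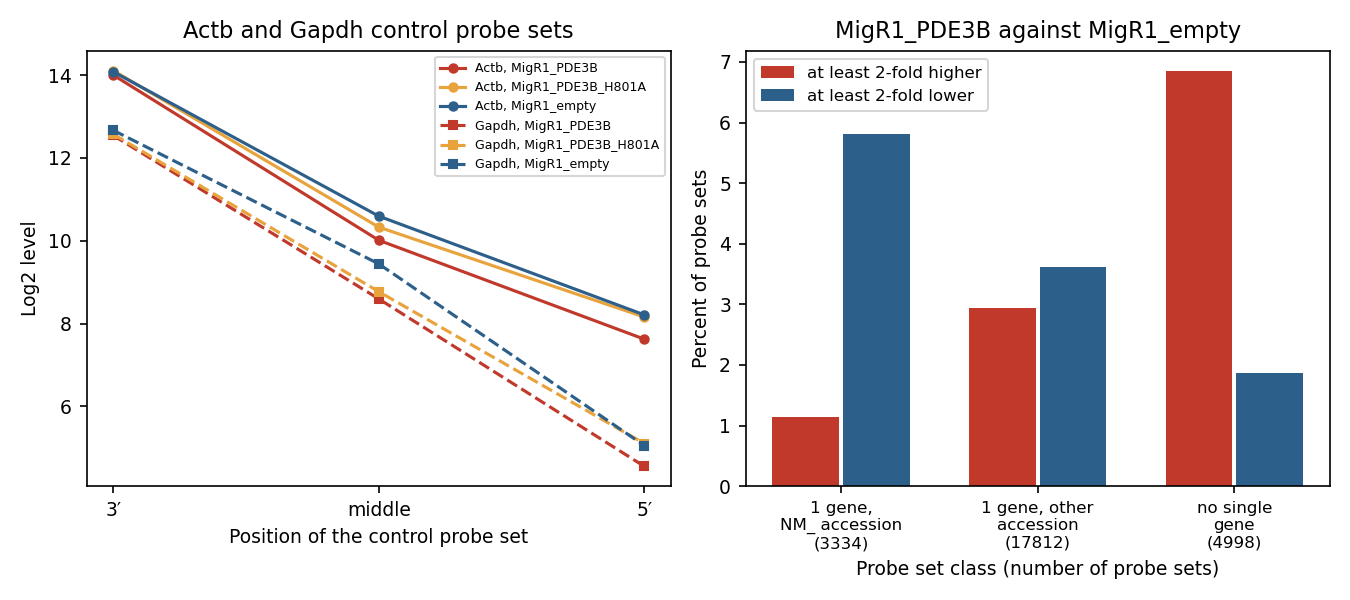
Left, log2 levels of the Actb (circles, solid lines) and Gapdh (squares, dashed lines) control probe sets from the 3′ end to the 5′ end on the PDE3B, H801A and empty vector arrays. Right, percent of probe sets at least 2-fold higher or lower with PDE3B than with the empty vector, by what the probe set was designed on. The PDE3B array is lowest at the 5′ end of both controls, and the share of higher calls runs from 1.14% to 6.84% across the classes.

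The kind of probe set moved with the direction of the differences. Among 3334 probe sets designed on a curated RefSeq transcript (an NM_ accession), 1.14% were at least 2-fold higher and 5.82% at least 2-fold lower with PDE3B. Among 17812 probe sets designed on another sequence of a single gene these shares were 2.95% and 3.62%, and among 4998 without a single named gene 6.84% and 1.86%. In 914 genes read by probe sets of both kinds, the NM_ probe set gave a median difference of -0.16 and the other one 0.00, and the NM_ probe set was the lower of the pair in 67.4%. H801A minus empty vector gave medians of -0.10 and 0.00 in these genes. The part of probe set class in the gene differences was not tested.

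The spread of differences depended on level, as the plot of difference against mean level shows. Over all genes the differences between the PDE3B and empty vector arrays had an SD of 0.475 log2 units and a median of -0.05. H801A minus empty vector had an SD of 0.374, with 111 genes at least 2-fold higher (0.93%) and 163 lower (1.37%). For H801A this is 2.29% in all. PDE3B minus H801A had an SD of 0.401, with 88 genes higher (0.737%) and 275 lower (2.3%), 3.04% in all. Among genes with a mean log2 level of 4 to 6, 11.9% were at least 2-fold lower with PDE3B and 2.95% higher. Among those at 8 to 10 the shares were 1.27% and 0.465%, and above 10 they were 7 and 3 of 1401 genes. Genes close to the threshold were many: 134 lay between 0.8 and 1 on the higher side and 387 on the lower side, the nearest ones at 1.01 inside and 0.99 outside on the higher side.

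**Figure D2:**
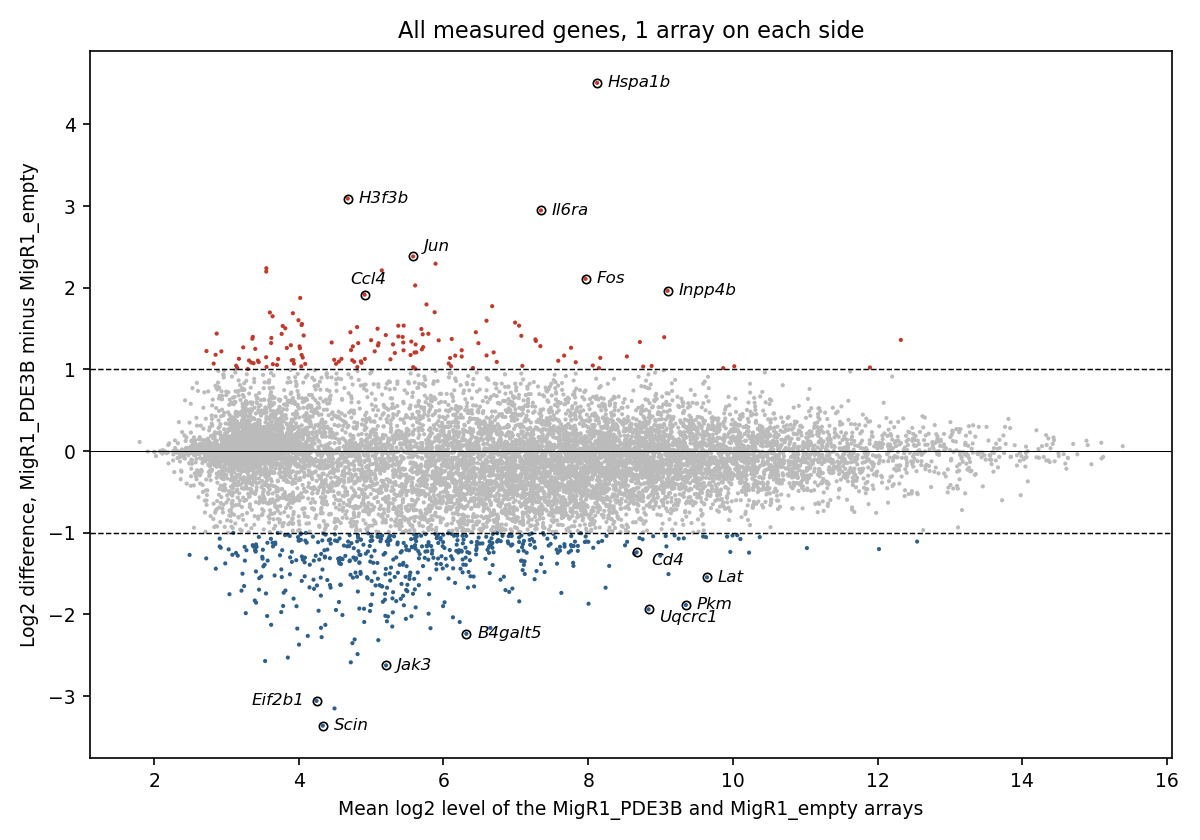
Log2 difference, PDE3B minus empty vector, against the mean log2 level of these arrays, 1 point per gene. Dashed lines mark 2-fold, red points are the 143 genes at least 2-fold higher, blue points the 507 at least 2-fold lower, and circles the genes labelled. Most points beyond 2-fold lie at mean levels under 8, and Hspa1b stands highest at a difference of 4.51.

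The excess of lower genes depended on how the arrays were scaled. As deposited, 78.0% of the 650 genes beyond 2-fold were lower with PDE3B. The median level over the measured genes was 6.43 on the PDE3B array, 6.55 on the H801A array and 6.65 on the empty vector array. Centring each array on that median shifts every difference up by 0.22, after which 291 genes were at least 2-fold higher and 286 lower (49.6% lower). Removing the trend with level by loess left 62.7% lower. The excess of lower over higher genes was thus present under some scalings and absent under centring. A range given beside a list's median below covers the rescalings, filters, probe set rules and other reference tried, and not the added choice of the smaller difference of a gene's brightest pair of probe sets. That choice, made after seeing the data, is open only to genes with such a pair and pulls the value of each gene towards 0 by its construction, so its median and number of genes are given apart, beside some of the lists.

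The largest increases among genes above the array median on both arrays were led by Hspa1b. Its log2 level was 10.38 with PDE3B, 8.69 with H801A and 5.87 with the empty vector, a difference of 4.51 or 22.8-fold between PDE3B and the empty vector. A second probe set of Hspa1b read 6.45, 4.09 and 3.18. Another one, whose identifier marks possible cross-matching, read 7.19, 4.62 and 3.10, the last of these below the array median. All 3 probe sets put the PDE3B array highest and the empty vector array lowest. The neighbouring and nearly identical gene Hspa1a, which these probe sets may not tell from Hspa1b, lay at 4.45 with PDE3B, 3.17 with H801A and 2.75 with the empty vector, where it was below the array median, so that it was at least 2.41-fold higher with PDE3B. The sorted-cell arrays gave Hspa1b levels of 4.96 to 8.36, with a median of 6.29, all below both the PDE3B and the H801A array.

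The rest of the heat shock list did not share this size. Of 14 heat shock chaperones measured, Hspa1b and Hspa1a were the 2 that were at least 2-fold higher (14.3%, against 1.2% of all genes). None was lower, against 4.25% of all genes, and the list median was 0.00. Dnaja1, a DnaJ cochaperone of Hsp70, was next at 11.44 with PDE3B, 10.83 with H801A and 10.68 with the empty vector, a difference of 0.76. Hsph1, an Hsp110 chaperone, differed by 0.29, and Hspa4 and Hsp90b1 by -0.26 and -0.23, with other probe sets of the opposite sign.

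Il6ra, the alpha chain of the IL-6 receptor, was the next largest increase and was alike on both PDE3B vectors. Its level was 8.82 with PDE3B, 8.91 with H801A and 5.87 with the empty vector, a difference of 2.95 or 7.71-fold. That reading rests on 1 probe set. Its other probe set was below the array median on all 3 arrays, at 3.10, 2.66 and 2.67. The sorted-cell arrays lay at 9.16 to 10.19, so here the empty vector array is the one that stands apart from the other 9. Inpp4b, a phosphatase of membrane inositol lipids, followed the same order at 10.08 with PDE3B, 9.61 with H801A and 8.12 with the empty vector, and its other probe set differed by 1.52. Snai2, a zinc finger transcription factor, lay at 6.73, 6.63 and 5.03, but its other probe set differed by 0.04.

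Fos and Jun were higher with PDE3B than on either other array. Jun lay at 6.77 with PDE3B, 5.21 with H801A and 4.39 with the empty vector, a difference of 2.38, and its other probe set at 4.83, 3.96 and 3.77. Fos lay at 9.02 with PDE3B, 6.61 with H801A and 6.91 with the empty vector, a difference of 2.11 or 4.31-fold, read by 1 probe set. On the sorted-cell arrays Jun lay at 5.62 to 9.33 and Fos at 7.93 to 12.02, so for both genes the H801A and empty vector arrays were below all of those and the PDE3B array was within their range. Of 21 immediate early and AP-1 genes measured these were the 2 at least 2-fold higher (9.52%, against 1.2% of all genes). In the same list 1 was lower (4.76%, against 4.25% of all genes). The list median was 0.00, which ran from -0.12 to 0.21. Ier2, an immediate early nuclear protein, was the 1 that was lower, at 7.25 with PDE3B, 7.94 with H801A and 8.47 with the empty vector. Fosl2, a Fos-related partner of Jun, differed by 0.83, Junb by -0.51 and Egr1, a zinc finger factor of the early response, by 0.11.

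The other large increases were a mixed group. Ccl4, a chemokine, lay at 5.87 with PDE3B, 4.58 with H801A and 3.95 with the empty vector, against 2.18 to 2.81 on the sorted-cell arrays. Yes1, a kinase of the Src family, lay at 6.25, 3.80 and 4.04, but its other probe set differed by -0.17. Ankrd52, a regulatory subunit of protein phosphatase 6, lay at 6.62, 7.45 and 4.59. Ankrd29 was higher by 2.29, Tbrg3 by 1.80, 3300002A11Rik by 1.77, Myo1d by 1.60 and St3gal2, a sialyltransferase, by 1.60. Other probe sets of Ankrd29, Myo1d and St3gal2 differed by 0.04, -0.12 and -0.44. On 9 of the 14 largest increases the H801A array was also at least 2-fold above the empty vector, against 0.93% of all genes. These genes were picked in part for a low empty vector value, which both differences share, so a higher share follows from that choice.

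Some genes were below the array median with the empty vector, so only a bound can be given for them. H3f3b, which encodes the histone variant H3.3, lay at 6.22 with PDE3B, 4.64 with H801A and 3.13 with the empty vector, at least 8.25-fold higher with PDE3B. Cacnb4, a calcium channel subunit, was at least 3.43-fold higher, Hs3st3b1, a heparan sulfate sulfotransferase, at least 3.0-fold, Dapk1, a kinase linked to cell death, at least 2.81-fold and Akr1c18, a steroid dehydrogenase, at least 2.77-fold. Cacnb4 reached the array median on the PDE3B array alone, so it counts as measured only through the array on which it is high. None of these 6 genes, Hspa1a included, had another probe set above background to set beside it.

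**Figure D3:**
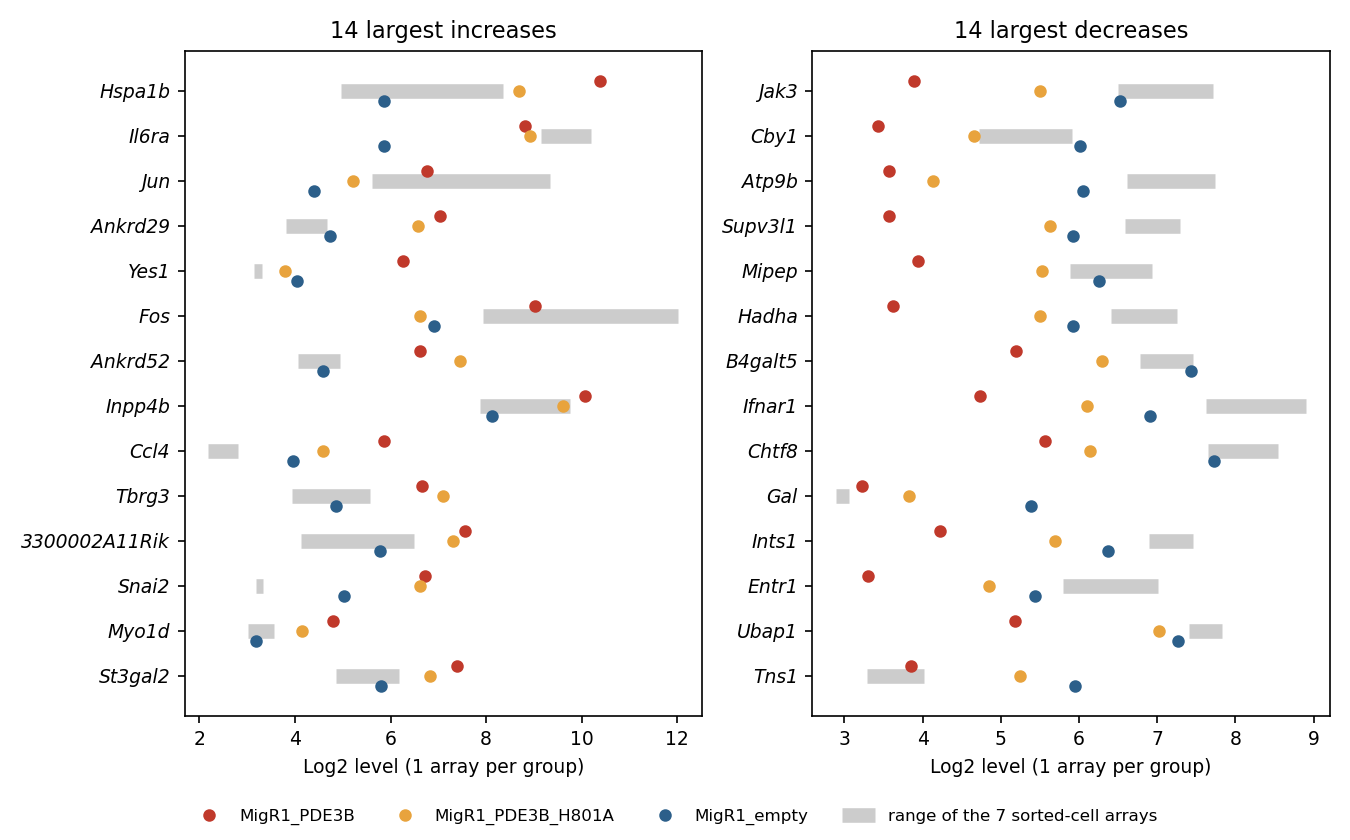
Log2 levels on the PDE3B (red), H801A (orange) and empty vector (blue) arrays of the 14 largest increases and the 14 largest decreases, with the range of the 7 sorted-cell arrays as a grey bar. Jak3 lay at 3.89 with PDE3B, 5.50 with H801A and 6.52 with the empty vector, and on all 14 decreases the H801A array lay between the other arrays. The genes were picked for the widest gaps between those arrays, so a further array tends to lie inside the gap by that choice.

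The 14 largest decreases ran from -2.62 to -2.09 log2 units, against 1.60 to 4.51 for the 14 largest increases. Jak3, the kinase that signals from the common gamma chain of the IL-2 receptor, lay at 3.89 with PDE3B, 5.50 with H801A and 6.52 with the empty vector, a difference of -2.62 read by 1 probe set. It lay at 6.50 to 7.71 on the sorted-cell arrays. Cby1, an antagonist of beta-catenin, lay at 3.43, 4.65 and 6.01 in the same order. Supv3l1, an RNA helicase of mitochondria, lay at 3.57, 5.62 and 5.92, Mipep, a mitochondrial peptidase, at 3.94, 5.53 and 6.26, and Hadha, an enzyme of mitochondrial fatty acid oxidation, at 3.62, 5.50 and 5.92. B4galt5, a galactosyltransferase, lay at 5.20 with PDE3B, 6.30 with H801A and 7.43 with the empty vector. On each of these 6 genes the PDE3B array was below all 7 sorted-cell arrays, of which the lowest read 4.72 for Cby1 and 6.77 for B4galt5.

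The remaining large decreases were less uniform between probe sets. Atp9b, of the phospholipid flippase family, was lower by a difference of -2.48, and its other probe set by -1.26. Ints1, a subunit of the Integrator complex, differed by -2.15 and -0.53, and Tns1, a tensin, by -2.09 and -0.45. Ifnar1, a chain of the type I interferon receptor, lay at 4.74 with PDE3B, 6.11 with H801A and 6.90 with the empty vector, but its other probe set differed by 0.44. Entr1 and Ubap1, a subunit of the ESCRT-I complex, differed by -2.13 and -2.09 and had other probe sets of opposite signs, from -1.56 to 0.24 and from -0.47 to 0.35. Chtf8, a protein of a replication clamp loader, differed by -2.16. Gal, the neuropeptide galanin, lay at 3.23 with PDE3B, 3.83 with H801A and 5.39 with the empty vector, against 2.89 to 3.06 on the sorted-cell arrays.

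Genes below the array median with PDE3B again allow only bounds. Prkcz, an atypical protein kinase C, lay at 2.92 with PDE3B, 4.61 with H801A and 6.07 with the empty vector, at least 7.20-fold lower with PDE3B. Scin, an actin-severing protein, was at least 6.93-fold lower and lay at 2.51 to 3.07 on the sorted-cell arrays. The empty vector array, at 6.01, lay above that range. The H801A array was above it as well, since H801A minus empty vector was no lower than -2.08 on any gene of this group. Eif2b1, a subunit of the exchange factor eIF2B, was at least 5.87-fold lower, Rrp9, a protein of the U3 small nucleolar particle, at least 3.91-fold, Pacs2, a sorting protein, at least 3.71-fold and Dusp3, a phosphatase, at least 3.03-fold.

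Where a gene had other probe sets the readings often disagreed in size and in sign. Over 4441 genes with more than 1 probe set above background on both arrays, the brightest pair differed from each other by a median of 0.374 log2 units in the PDE3B minus empty vector difference, and 12.4% by more than 1. Of the 507 lower genes 132 had another such probe set, and in 67 of these 132 every other one was also below 0. In 13 of them another was also at least 2-fold lower, against 4 in which another was at least 2-fold higher. Of the 143 higher genes 52 had another one, which was also at least 2-fold higher in 8 genes and at least 2-fold lower in none. In 29 of these 52 every other one was also above 0. The other genes beyond 2-fold had no such second reading.

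Genes of the cAMP machinery were beyond 2-fold about as often as all genes. Of 85 genes in 6 lists around cAMP, 64 were measured and 58 of these lay above the array median on either array. Of the 64, 1 was at least 2-fold higher and 2 lower, with a median of -0.03, against 1.2% and 4.25% of all genes and a median of -0.05. Among 9 cAMP phosphodiesterases Pde1b was lower, at 5.64 with PDE3B, 6.50 with H801A and 6.86 with the empty vector. Pde2a, a phosphodiesterase that cyclic GMP stimulates, lay at 11.52, 11.57 and 11.73. Pde4b and Pde7a differed by 0.54 and 0.45, and Pde4d and Pde8a by -0.36 and -0.42. Other probe sets of Pde7a ran from -1.25 to 0.15.

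Receptors and cyclases upstream of cAMP showed no member beyond 2-fold. Among 9 genes of receptors coupled to Gs and of G proteins, Ptger4, a prostaglandin E2 receptor, lay at 12.83 with PDE3B, 12.79 with H801A and 12.73 with the empty vector, and Ptger2, another, at 8.62, 8.83 and 9.01. Gnas, the alpha subunit of Gs, differed by -0.43 and Gpr65, a proton-sensing receptor, by 0.35. Among 5 adenylyl cyclases Adcy7, the form known from leukocytes, differed by 0.14, and its other probe set by -0.37. The median was -0.02 for the receptors and 0.14 for the cyclases, and over the processing choices these ran from -0.04 to 0.19 and from 0.05 to 0.35.

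Protein kinase A and CREB genes held 1 member beyond 2-fold, where 1.2% of all genes were higher and 4.25% lower. Of 17 genes of kinase A subunits, anchors and Epac, 1 was at least 2-fold lower: Prkar1b, a regulatory subunit, at 3.61 with PDE3B, 2.82 with H801A and 5.25 with the empty vector. That difference of -1.64 became -0.007 without probe sets marked for cross-matching, -0.45 with the mean of its probe sets and -0.42 against the mean of the H801A and empty vector arrays. The catalytic subunits Prkaca and Prkacb differed by -0.32 and -0.44, and the regulatory subunit Prkar1a by -0.13. The anchor Akap12 lay at 7.15, 7.89 and 8.00, a difference of -0.85. Of 10 CREB family members and coactivators none was beyond 2-fold: Creb1 differed by 0.24, Crem by -0.05, the coactivator Crtc3 by -0.37 and Atf4 by -0.56. These counts rest on 1 probe set per gene, and some other probe sets were beyond 2-fold. They ran from -3.66 to 0.47 for the anchor Akap13, from -0.007 to 1.19 for Akap9 and from 0.27 to 1.57 for Atf2.

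Genes known to respond to cAMP lay on both sides of 0. Of 18 measured, 10 had a difference below 0, and Fos alone was beyond 2-fold, where 5.44% of all genes were. The list median was -0.01, with a range of -0.02 to 0.21 over the processing choices. Rgs2, an inhibitor of G protein signalling, lay at 8.00 with PDE3B, 7.76 with H801A and 7.07 with the empty vector, and its other probe sets differed by 0.89 and 1.78. Dusp1, a phosphatase of MAP kinases, differed by 0.29. Of the nuclear receptors of the Nr4a group, Nr4a2 differed by -0.78, Nr4a3 by -0.34 and Nr4a1 by -0.16.

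Mitosis genes lay lower on the PDE3B array as a list. All 23 members measured had a difference below 0, 9 were at least 2-fold lower and none higher, and the median was -0.66, against 4.25% lower and a median of -0.05 over all genes. Over the processing choices tried, apart from the choice between probe sets given below, the median ran from -0.80 to -0.44 and the number lower from 4 to 9. Among the 8082 genes with mean levels in the range of these members, 4.15 to 11.49, 5.13% were at least 2-fold lower and the median was -0.14. Aurka, Plk1, Kif20a, Aurkb and Cenpe lie at mean levels of 4 to 6, where 11.9% of all genes were at least 2-fold lower. H801A minus empty vector gave 1 member lower and a median of -0.32. In RNA of sorted populations, fewer cells in mitosis and less of these RNAs per cell cannot be told apart.

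The members with the largest differences are kinases and motors of the spindle. Aurka, a kinase of spindle poles, lay at 3.31 with PDE3B, 5.08 with H801A and 4.98 with the empty vector, and Aurkb, its relative at the centromere, at 4.51, 6.27 and 6.01. Kif20a, a kinesin of cell division, lay at 4.31, 5.87 and 5.97. On these 3 genes the PDE3B array stands below the other arrays, which lie within 0.27 of each other. For Plk1, a kinase of mitotic entry and exit, the PDE3B array at 3.43 and the H801A array at 3.82 were close, and the empty vector array lay at 5.07. Cenpe, a kinetochore motor, lay at 4.68, 5.71 and 6.32, but its other probe set differed by 0.18. Aurkb was read by a probe set marked for cross-matching, and its other probe set differed by 0.19. Kif2c, a kinesin that takes microtubules apart, lay at 5.35, 6.72 and 6.97, and its sign turned, to 0.045, when probe sets marked for cross-matching were left out. The other 3 genes beyond 2-fold, named after their values were seen, were Cdk1, Bub1b and Ttk, with differences of -1.44, -1.23 and -1.21. Of the 11 members with more than 1 bright probe set, the smaller difference of the brightest pair was beyond 2-fold in 1 and had a median of 0.00, a choice made after seeing the data that pulls values towards 0 by its construction.

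**Figure D4:**
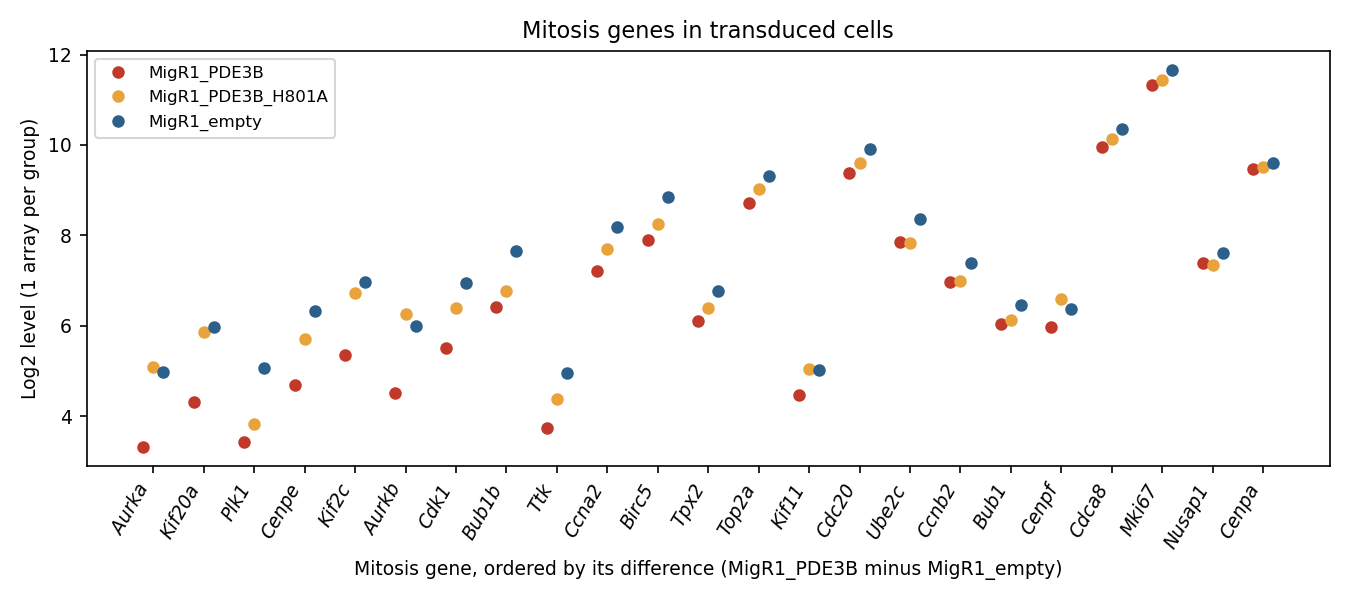
Log2 levels of the 23 mitosis genes measured, ordered by their difference, on the PDE3B (red), H801A (orange) and empty vector (blue) arrays. The PDE3B array lies below the empty vector array on every gene shown, from a difference of -1.67 for Aurka to -0.15 for Cenpa.

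Replication genes were mostly below 0 with few beyond 2-fold. Of 23 genes of replication and S phase 21 had a difference below 0 and 2 were at least 2-fold lower, against 4.25% of all genes. Over the processing choices the number lower ran from 1 to 5. The median was -0.33 and ran from -0.54 to -0.11, with -0.15 over 13 genes for the smaller difference of a pair. Tk1, thymidine kinase, lay at 5.61 with PDE3B, 6.80 with H801A and 7.0 with the empty vector. Gins1, of the replicative helicase, lay at 5.97, 6.88 and 7.10, with another probe set at a difference of -0.03. Pcna, the sliding clamp, lay at 11.31, 11.70 and 12.05. Tyms, thymidylate synthase, went the other way, at 5.30, 5.17 and 4.32.

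A list drawn from the sorted-cell arrays, which share no array with this comparison, overlapped these genes. In 78 genes at least 2-fold higher with IL-2 injections in all 3 populations, 17 were at least 2-fold lower with PDE3B (21.8%, against 4.25% of all genes) and 1 higher, with a median of -0.61. The number lower ran from 6, with the mean of all kept probe sets, to 18. H801A minus empty vector gave 3 lower, none higher and a median of -0.29. Of the 78 genes 26 belong to the mitosis and replication lists. The other 52 had a median of -0.56, and 6 of them were lower. Rad54l, a protein of DNA repair by recombination, lay at 3.37 with PDE3B, 5.22 with H801A and 5.05 with the empty vector, but its other probe sets ran from -0.62 to 0.50. Ncapg, a condensin subunit, was the 1 gene higher, at 8.14, 7.85 and 7.03, with another probe set at 0.04. Gzmb, which encodes granzyme B, and Rgs1 differed by 0.02 and 0.14. Over the processing choices the median of the list ran from -0.61 to -0.39, and the smaller difference of a pair gave -0.14 over 31 genes, 1 of them lower.

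A list of the IL-2 receptor, JAK and STAT families, which also holds receptors of other cytokines, had 1 gene beyond 2-fold in each direction. Of its 17 genes Jak3 was lower and Il6ra, of the IL-6 receptor, higher, and the median was -0.27, which ran from -0.27 to -0.06. Tyk2 lay at 8.88 with PDE3B, 9.16 with H801A and 9.72 with the empty vector, and Stat5a, a factor that IL-2 activates, at 6.50, 6.06 and 7.23. Cish, a feedback inhibitor induced by STAT5, lay at 10.94, 10.91 and 11.32. Of 14 STAT5 targets Prf1, which encodes perforin, was higher and Ltb4r1, a leukotriene receptor, lower. The counts of both lists are to be read against 1.2% of all genes higher and 4.25% lower.

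Of 29 regulatory T cell genes 3 were at least 2-fold lower (10.3%, against 4.25% of all genes), and none was higher. The number lower ran from 0, against the mean of the H801A and empty vector arrays, to 4, and 1 was higher with the mean of all kept probe sets. Tnfrsf9, a receptor of the TNF receptor family, lay at 9.35 with PDE3B, 9.70 with H801A and 10.58 with the empty vector, and its other probe set differed by -1.06. Penk, which encodes proenkephalin, lay at 11.42, 12.00 and 12.62, and Izumo1r, a folate receptor relative, at 9.07, 8.97 and 10.11. Ebi3, a cytokine subunit, lay at 10.05, 10.10 and 10.99. The list median was -0.27 with PDE3B and -0.23 with H801A, and over the processing choices the PDE3B median ran from -0.28 to -0.06, with 0.00 over 15 genes for the smaller difference of a pair. Entpd1, the ectoenzyme CD39, differed by 0.77, but its other probe sets ran from -1.36 to -0.13.

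Genes that differ with Foxp3 in the sorted cells were examined in 4 lists. In 403 genes at least 2-fold higher in GFPfoxp3 than in GFPko cells, with and without IL-2, 38 were at least 2-fold lower with PDE3B (9.43%, against 4.25% of all genes) and 5 higher (1.24%, against 1.2%), with a median of -0.21. In 132 genes lower in GFPfoxp3 cells in those pairs, 6 were higher (4.55%) and 4 lower (3.03%), with a median of -0.01. Against CD25pos cells, 373 genes higher in GFPfoxp3 cells gave 6 higher (1.61%), 21 lower (5.63%) and a median of -0.14, and 234 lower ones gave 9 higher (3.85%), 12 lower (5.13%) and a median of -0.04. In the order given, the number lower ran from 25 to 39, 1 to 5, 15 to 21 and 6 to 12 over the processing choices, and the number higher from 3 to 9, 2 to 11, 6 to 16 and 2 to 17. The medians ran from -0.24 to 0.00, -0.02 to 0.21, -0.16 to 0.08 and -0.08 to 0.18, and the smaller difference of a pair gave 0.00 for all 4 lists. Camk2n1, an inhibitor of calmodulin-dependent kinase II, was among those higher with both Foxp3 and PDE3B, at 8.40 with PDE3B, 8.21 with H801A and 7.13 with the empty vector, with another probe set at 0.97. Slc39a4, a zinc transporter, was higher with Foxp3 and lay at 6.13 with PDE3B, 7.10 with H801A and 7.97 with the empty vector. Malat1, a nuclear noncoding RNA, differed by 1.36 with PDE3B and 1.66 with H801A from the empty vector, with other probe sets from -0.08 to 2.33.

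Among genes of energy metabolism and ribosomes few were beyond 2-fold, and the shares lower are to be read against 4.25% of all genes. Of 15 glycolysis genes 3 were at least 2-fold lower and none higher. Pkm, pyruvate kinase, lay at 8.41 with PDE3B, 9.73 with H801A and 10.29 with the empty vector, and Hk2, a hexokinase, at 5.27, 6.32 and 6.58. Pfkl, a phosphofructokinase, lay at 6.04, 6.88 and 7.21, but its other probe set differed by 0.56. The glucose transporter Slc2a1 differed by 0.61. The median of the list was -0.26 and ran from -0.27 to -0.04, with 2 or 3 genes lower, and the smaller difference of a pair gave -0.06 over 9 genes, none of them lower. Uqcrc1 was the 1 of 25 respiratory chain genes that was lower, a share near that of all genes, at 7.87 with PDE3B, 8.60 with H801A and 9.80 with the empty vector. Of 12 genes of lipid breakdown Hadha and Cpt2, a carnitine palmitoyltransferase, were lower, and Hadhb, the partner subunit of Hadha, lay at 12.04, 11.95 and 11.64. Of 20 ribosome biogenesis genes Rrp9 was lower, and 18 had a difference below 0, with a median of -0.30 that ran from -0.41 to -0.08. This 1 gene of 20 is near the share of all genes, and the smaller difference of a pair gave a median of -0.005 over 11 genes. Of 16 cytosolic ribosomal protein genes none was beyond 2-fold, with a median of -0.06.

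Cytotoxic and naive T cell genes each held 3 members that were higher, where 1.2% of all genes were. Over the processing choices this number ran from 2 to 4 for the cytotoxic list and from 0, against the mean of the H801A and empty vector arrays, to 3 for the naive list. Of 14 cytotoxic genes Ccl4, Gzmk and Prf1 were at least 2-fold higher and Gzma lower, where 4.25% of all genes were lower. Gzmk, which encodes granzyme K, lay at 5.10 with PDE3B, 3.74 with H801A and 4.01 with the empty vector. Prf1 was below the array median with the empty vector and at least 2.07-fold higher with PDE3B, at 4.23, against 3.99 with H801A. Gzma, which encodes granzyme A, lay at 6.76 with PDE3B, 6.06 with H801A and 8.50 with the empty vector, so both PDE3B vectors were lower. Of 12 naive T cell genes Dapl1, Igfbp4 and Foxp1 were higher. Dapl1 lay at 4.65, 4.64 and 3.39, and Foxp1, a forkhead factor of quiescent T cells, at 10.54, 10.08 and 9.50, with 7 other probe sets from -0.03 to 1.09. Igfbp4 was near background on all 3 arrays, at 3.99, 4.05 and 2.90, at least 1.76-fold higher with PDE3B once the empty vector is set to its array median, and its sign turned, to -0.082, with the mean of its probe sets. Il7r, the IL-7 receptor, lay at 12.02, 12.30 and 12.14.

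**Figure D5:**
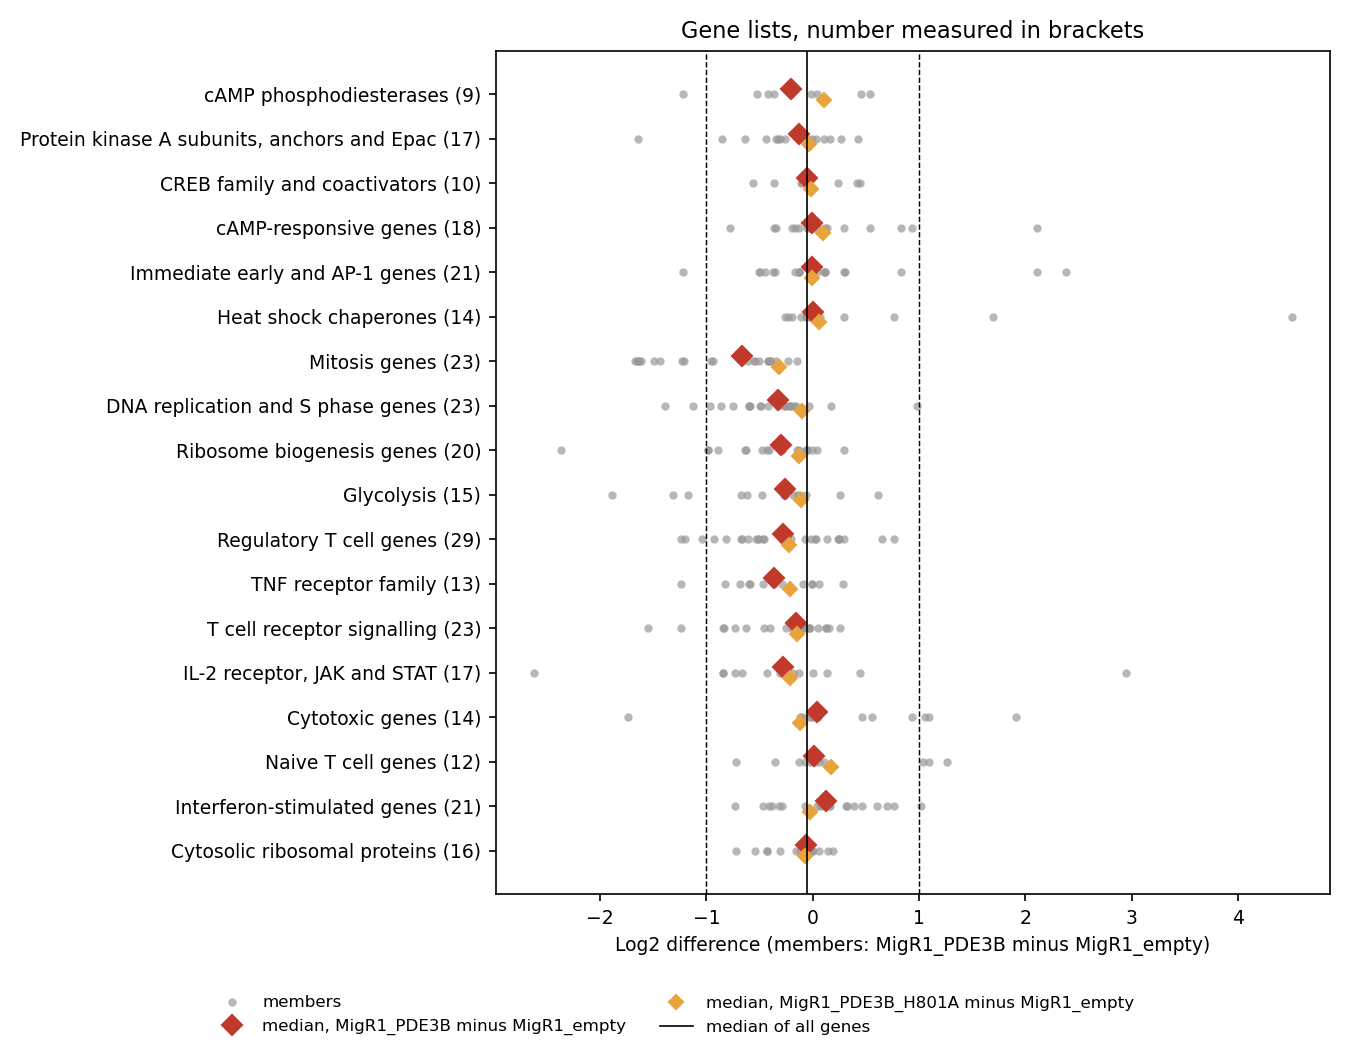
Log2 differences, PDE3B minus empty vector, of the members (grey) of 18 gene lists with the number measured in brackets, their median (red) and the median of H801A minus empty vector (orange). Dashed lines mark 2-fold and the solid line the median of all genes. Mitosis genes have the lowest median, at -0.66, and the other lists shown lie between -0.37 and 0.13.

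T cell receptor signalling and cytokine lists held few members beyond 2-fold, where 1.2% of all genes were higher and 4.25% lower. Of 23 genes of T cell receptor signalling Lat, an adaptor of the receptor, and Cd4 were at least 2-fold lower, with a list median of -0.16 that ran from -0.18 to 0.06. Lat lay at 8.87 with PDE3B, 10.21 with H801A and 10.41 with the empty vector. Zap70, the kinase upstream of Lat, lay at 7.91, 8.03 and 8.75. Of 11 effector cytokine genes none was beyond 2-fold: Ifng lay at 8.49 with PDE3B, 7.41 with H801A and 7.90 with the empty vector, and Il2 stayed near background on all 3 arrays. Gata3, the factor of the Th2 lineage, differed by -0.13 and Rora by -0.03. Of 13 TNF receptor family genes Tnfrsf9 alone was beyond 2-fold, with a median of -0.37 that ran from -0.44 to -0.15, and -0.68 over the 2 genes that have a bright pair. Of 21 interferon-stimulated genes Rsad2, an antiviral protein, was higher, at 8.66, 7.82 and 7.64, with another probe set at -0.36, and the median was 0.13.

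The remaining lists held at most 1 member beyond 2-fold, to be read against 1.2% of all genes higher and 4.25% lower. Spry1, an inhibitor of Ras signalling, was lower with both PDE3B vectors, at 3.63 with PDE3B, 3.47 with H801A and 5.48 with the empty vector. Pik3cd, a phosphoinositide kinase of lymphocytes, lay at 6.88, 7.42 and 8.03, but its other probe sets differed by 0.17 to 0.41. Itgb3, an integrin chain, lay at 6.56, 7.11 and 7.66, Anxa6, an annexin, at 9.40, 9.88 and 10.44, and Ascl2, a factor of follicular helper cells, at 3.30, 3.29 and 4.32. Tsc2, a brake on the kinase mTOR, was at least 2.23-fold lower with PDE3B. Rnf128, a ubiquitin ligase of T cells known as GRAIL, was the 1 that was higher, at 6.27 with PDE3B, 6.05 with H801A and 4.96 with the empty vector, with another probe set at -0.38. No member was beyond 2-fold among genes of the Th1, Th2 and Th17 lineages, inhibitory and activation receptors, chemokine and homing receptors, TGF-beta and SMAD, the BCL2 family, sterol and fatty acid synthesis, interferon-inducible GTPases, the unfolded protein response and NF-kB factors. Of these lists sterol and fatty acid synthesis had the lowest median, -0.33 over 16 genes, which ran from -0.35 to -0.11, with 0.00 over 8 genes for the smaller difference of a pair. Havcr2, an inhibitory receptor, lay closest to the threshold, at 6.55 with PDE3B, 7.84 with H801A and 7.53 with the empty vector. Mvd, an enzyme of sterol synthesis that was not in the sterol list, was at least 2-fold lower as deposited. Its sign turned when probe sets marked for cross-matching were left out.

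Markers of other cells were examined over whole lists. Of 15 B cell markers 9 were measured, all above the array median on both arrays, with a mean log2 level of 6.40 with PDE3B, 6.18 with H801A and 6.37 with the empty vector. Cd79b, a B cell receptor chain, lay at 8.23 with PDE3B, 6.77 with H801A and 7.37 with the empty vector, and Cd74, an invariant chain of class II molecules, at 8.67, 8.56 and 9.03. Cd79a and Pax5 were not among the genes measured, which had to reach the array median on at least 1 of the 10 arrays. Of 7 plasma cell markers 6 were measured and 2 of them were above the median with PDE3B, against 6 with the empty vector, with mean levels of 4.02 with PDE3B, 4.2 with H801A and 4.72 with the empty vector. Mzb1, at 2.17, 2.17 and 3.92, was below the array median with both PDE3B vectors and at least 1.62-fold lower with PDE3B. Of 14 myeloid markers 8 were measured, with mean levels of 4.81, 4.85 and 5.09, and Csf1r, the receptor of macrophage colony stimulating factor, was at least 2.17-fold lower with PDE3B. CD8 and NK cell markers had mean levels of 3.29, 3.29 and 3.33, near the array median, and Cd8a lay at 3.30, 3.22 and 3.24. Of 12 genes of gamma delta and innate-like T cells 4 were measured, with mean levels of 3.0, 2.86 and 2.67, and Trgv4, a gamma chain segment, was at least 1.61-fold higher with PDE3B by 1 probe set while the other differed by 0.01. Hbb-b2, a beta globin and the 1 measured of 9 erythroid and platelet markers, lay at 3.23, 3.07 and 3.05. The part of other cells in the differences above was not tested.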

How the data were processed

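Sorted T cells of 10 groups were measured on Affymetrix mouse 430 2.0 arrays, 1 array each, after 2 amplification rounds with MessageAmp II, per the labels' protocols. The deposited values are log2 levels of 45101 probe sets. The authors normalized all 10 arrays jointly, as the series' design text states. Which software and which background, summary and normalization methods they used is not stated in the labels at hand.

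Gene names came from the platform annotation, with symbols brought up to date through Entrez IDs on GRCm38.p6 (34958 probe sets with 1 gene, 932 with several, 9211 with none listed). A probe set was kept if it reached the median of its array at least once in the 10 arrays, which left 11939 of 18194 genes, and a gene's brightest kept probe set on average gave its level. Other probe sets quoted or counted beside a gene are, unless said otherwise, those at or above the array median on both arrays. Differences are PDE3B minus empty vector, called beyond 2-fold (1 log2 unit). Where the dimmer array lay below its median, the fold is a bound: the brighter level is set against the higher of that median and the measured dim level. Arrays have no read depth.

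Named genes were the 14 largest each way above the median on both arrays, the 6 largest each way from or to background, all members of 6 lists around cAMP, up to 6 of each other list, the 6 largest each way of lists from the sorted-cell arrays, and genes that check the labels. The 48 written lists covered the groups given in the results and others, and members and lists were chosen with earlier results of these data known. Alternatives were quantile normalization, centring, loess (span 0.3), 2 other filters, the mean of all probe sets, leaving out probe sets marked for cross-matching, a 3-fold threshold and another reference. The counting was tested on simulated data, with changes larger than 2-fold planted in all probe sets of bright genes. That does not show how calls behave near the threshold, at low levels or where probe sets disagree. Work was done in Python 3.11.15 with pandas 2.3.3, numpy 2.4.6 and statsmodels 0.14.6.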

Additional observations from a re-analysis of the deposited data

Results flagged for a closer look

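Some signals lay in probe sets outside the gene comparison. The control probe set for the middle of 18S ribosomal RNA read 8.42 on the PDE3B array and 7.47 on the empty vector array, a difference of 0.95. The H801A array read 8.47 there, so this signal was shared by both PDE3B vectors. At the 3′ and 5′ ends of 18S the H801A array was the highest, at 9.76 and 9.19, against 9.16 and 8.75 with PDE3B. A control for phe, a Bacillus gene spiked into some preparations, read 3.53 with PDE3B and 2.86 with the empty vector at its 5′ end. That is a difference of 0.67 at levels near the array medians, and the H801A array read 2.84. Of 4998 probe sets without a single named gene that reached the array median at least once in the 10 arrays, 342 were at least 2-fold higher with PDE3B and 93 lower, against 213 higher and 76 lower with H801A. The part of these signals in the gene differences was not tested.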

How the results depend on the processing

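As deposited, 143 genes were at least 2-fold higher and 507 lower with PDE3B, and the differences had an SD of 0.475. Centring each array gave 291 and 286, a 3-fold threshold 21 and 105, and the mean of the H801A and empty vector arrays as the reference 79 and 302. The smaller difference of the brightest pair of probe sets, an alternative chosen after seeing the data and open to 4441 genes, gave 6 and 12 and an SD of 0.217, lower by construction. The other alternatives gave 107 to 209 higher and 351 to 562 lower genes. Of 2969 values of named genes under an alternative, 2829 stayed close, 137 moved and 3 changed sign: Igfbp4, 1.09 as deposited, to -0.082 with the mean of its probe sets, and, without probe sets marked for cross-matching, Kif2c to 0.045 and Mvd, an enzyme of sterol synthesis at -1.49 as deposited, to 0.51. Of 469 list medians 2 moved by more than the limit. The cause of these changes was not tested. No paired analysis was possible because each group has 1 array, and no array could be left out for the same reason. Signal over background limits the values of dim genes.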
